A study of Homo sapiens with 12 samples.

Results

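The comparison was between DAOY cells, an established human medulloblastoma line, in which NOTCH2 had been targeted with CRISPR/Cas9 (NOTCH2KO) and DAOY cells in which NOTCH1 had been targeted in the same way (NOTCH1KO). It held 8 of the 12 libraries of the series, 4 per knockout line, and the 4 wild-type (WT) libraries served as a reference. Wells carried either Fc alone, as a control, or the ligand Jagged1, and cells received DMSO, the solvent, or the γ-secretase inhibitor DAPT over 12 h, which made 4 cultures per genotype and 1 library from each. The members were chosen by their labels alone, and the NOTCH1KO and NOTCH2KO libraries of the same plate and drug were set against each other as 4 pairs. A single line was sequenced per genotype, whether each line grew from 1 cell was not given, and a difference between these lines could not be told apart from a difference between any other lines made in the same way. In bulk RNA, fewer cells holding a transcript cannot be told apart from less of it per cell.

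Notch receptors are single-pass proteins that are cut when a ligand on a neighbouring cell or plate binds them. γ-secretase makes the final cut, and the freed intracellular domain (ICD) enters the nucleus, where it joins the DNA-binding protein CSL and a Mastermind coactivator on target genes such as those of the HES and HEY families. NOTCH1 and NOTCH2 are paralogs with the same order of domains, and both are known in the cerebellum, the tissue in which medulloblastoma arises. Setting one knockout line directly against the other asked which transcripts differ according to the paralog that was targeted.

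Levels were in TPM, transcripts per 1000000, a unit that the authors' processing had scaled for gene length and library total. A list of 4 values gives first the 2 Fc cultures and then the 2 Jagged1 cultures, the DMSO value before the DAPT value on each. Differences are those of log2(TPM + 1) in NOTCH2KO minus NOTCH1KO, each with its standard error from limma after ±, so that a positive value is higher in NOTCH2KO, and the scale understates changes of genes at low levels. TPM after ± carries the SD of 4 libraries. A gene was called when its adjusted p, by limma with Benjamini-Hochberg adjustment over all 17621 genes tested, was under 0.05. Because each genotype and culture had 1 library, these p-values measure how far the libraries depart from additive effects of genotype and culture, and nothing in the labels says that the cultures were independent.

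A library and a property of the transcripts moved with the comparison and touch many results. The libraries held between 18.3 and 22.4 M reads, with 18.7, 19.9, 20.9 and 19.7 M in NOTCH1KO and 21.2, 22.4, 20.8 and 21.4 M in NOTCH2KO. Genes at 1 TPM or more numbered 17064 to 17235 in the NOTCH1KO libraries and 17650 to 17790 in the NOTCH2KO libraries. The part of depth in any single difference was not tested. Among protein-coding genes of at least 5 TPM, the median difference rose from -0.05 in the fifth of genes with the lowest GC content to 0.39 in the fifth with the highest, where GC content ran from 58.0% to 72.7%. The slope was steepest in the pair grown on Fc with DAPT, from -0.27 to 0.80, against -0.08 to 0.32, 0.13 to 0.30 and 0.02 to 0.17 in the pairs of Fc with DMSO, Jagged1 with DMSO and Jagged1 with DAPT. Weights that limma estimated for the libraries ranged from 0.256 to 4.75, with the lowest for NOTCH1KO on Fc with DAPT. Calls are therefore also given with each library's GC trend removed, which was decided on once the data were known. The part of GC content in any single difference was not tested.

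**Figure D1:**
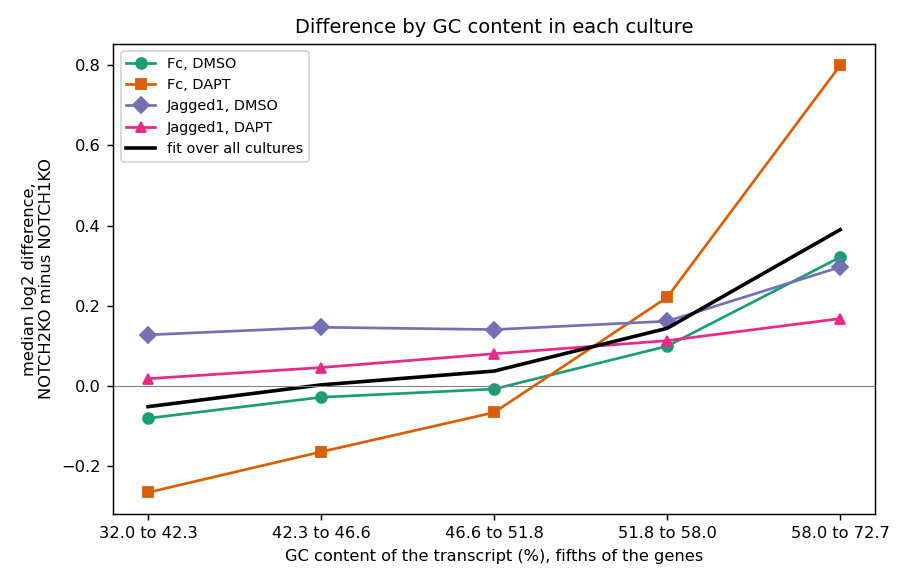
Median log2 difference between NOTCH2KO and NOTCH1KO (vertical axis) in 5 equal groups of protein-coding genes ordered by transcript GC content in percent (horizontal axis), with 1 line per culture and a black line for the fit over all cultures. The line of Fc with DAPT runs from -0.27 to 0.80, and the other cultures rise less.

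Of the 17621 genes, 3489 were higher (19.8%) and 2089 lower (11.9%) in NOTCH2KO. A log2 difference of at least 1 was reached by 945 of the genes called higher and 259 of those called lower, and 5461 of the 5578 called genes had the same sign in all 4 pairs. The 4 values of one line lay entirely apart from the 4 of the other for 5628 genes (31.9%). The median of all genes was 0.07. Centring the libraries on their medians moved it to -0.08, a shift of the whole scale, and turned the split into 2403 higher and 3600 lower, while removing the GC trend gave 2903 and 2947. Counts in one direction are therefore given with those after removal of the GC trend, and a list's median stands against 0.07 for all genes. The counts of every list below stand beside 19.8% higher and 11.9% lower among all genes. Those with the GC trend removed stand beside 2903 higher and 2947 lower of the 17034 genes in that fit. Of the 3418 higher and 2029 lower calls with a GC value, 2621 and 1975 were called in the same direction after the GC trend was removed, and 0 were called in the other direction. Without the NOTCH1KO library of Fc with DAPT, 2968 of the higher and 1642 of the lower calls remained. Protein-coding genes were more often higher than lower, with 2927 against 1380 of 12604, and processed pseudogenes more often lower, with 456 against 167 of 2517.

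The targeted receptors checked the labels. NOTCH1 had 0.874, 0.278, 0.488 and 0.619 TPM in NOTCH1KO and 4.13, 4.38, 3.36 and 3.97 in NOTCH2KO (log2 difference 1.67 ± 0.14, adjusted p = 0.000125). NOTCH2 had 107, 109, 87.2 and 111 TPM in NOTCH1KO and 48, 41.6, 60.5 and 52.7 in NOTCH2KO (log2 difference -1.02 ± 0.13, adjusted p = 0.000726). Each receptor was lower in the line named after it, with ranges that did not overlap, and NOTCH2 transcripts remained at 50.7 TPM in NOTCH2KO, more than the NOTCH1 level in any of the 12 libraries. The tables give a gene's total, do not separate edited from unedited transcripts and may count reads of the near-identical NOTCH2NL copies for NOTCH2. NOTCH3, the other paralog expressed, had 1.79, 0.107, 7.0 and 0.208 TPM in NOTCH1KO and 0.246, 1.33, 0.237 and 0.186 in NOTCH2KO (log2 difference -0.70 ± 0.66, adjusted p = 0.457), with a wide spread, its highest values in different cultures of the lines and no call. NOTCH4 was listed at 0.091 and 0.218 TPM and was not tested.

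**Figure D2:**
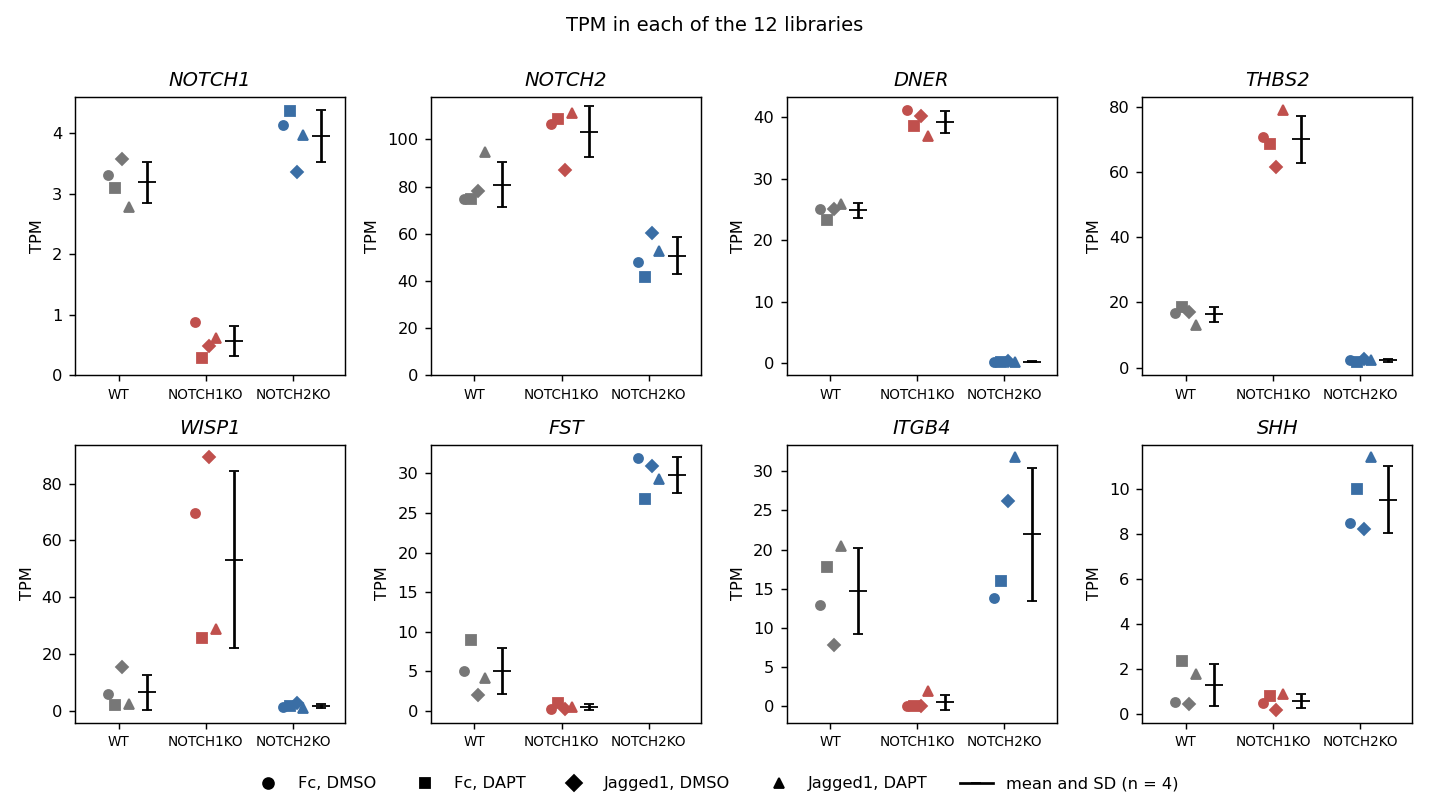
TPM (vertical axis) of 8 genes in the WT, NOTCH1KO and NOTCH2KO libraries (horizontal axis), 1 symbol per culture, with the mean and SD of 4 libraries at the right of each group. NOTCH1, FST, ITGB4 and SHH sit higher in every NOTCH2KO library than in any NOTCH1KO library, and NOTCH2, DNER, THBS2 and WISP1 sit lower.

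The largest falls in NOTCH2KO were close to losses. DNER, which encodes a neuronal transmembrane protein with EGF repeats that has been described as a non-canonical Notch ligand (GRCh37 chromosome 2, 230222345 to 230579274), had 41.2, 38.6, 40.2 and 37 TPM in NOTCH1KO and 0.214, 0.114, 0.297 and 0.245 in NOTCH2KO (log2 difference -5.05 ± 0.08, adjusted p = 1.79e-08). The 4 NOTCH2KO libraries were near 0, and the NOTCH1KO libraries varied little. C3orf14, a gene of little-known function, had 28.9, 42.7, 33.5 and 39.1 TPM in NOTCH1KO and 0, 0.0785, 0.0616 and 0.0849 in NOTCH2KO (log2 difference -5.12 ± 0.12, adjusted p = 5.2e-08). NAA11, an N-terminal acetyltransferase gene, was at 21.2 ± 0.616 TPM in NOTCH1KO and at 0 in 3 of 4 NOTCH2KO libraries, and PID1, which encodes an adaptor that lowers insulin signalling, was at 14 ± 0.975 and likewise at 0 in 3 of 4. The forkhead gene FOXR2 (-3.98) and the retrogene RPL10L (-4.23) followed the same pattern. Against WT, these 6 genes were lower in NOTCH2KO, with log2 differences from -4.46 for C3orf14 to -3.43 for PID1, while their values for NOTCH1KO lay between 0.20 for NAA11 and 0.66 for C3orf14. All but NAA11 were called higher in NOTCH1KO than in WT.

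In several other large falls NOTCH1KO lay further above WT. THBS2, the gene of the matricellular, anti-angiogenic protein thrombospondin 2 (GRCh37 chromosome 6, 169615875 to 169654139), had 70.6, 68.5, 61.5 and 79 TPM in NOTCH1KO and 2.26, 1.58, 2.604 and 2.28 in NOTCH2KO (log2 difference -4.48 ± 0.15, adjusted p = 7.26e-07). Its differences from WT were 2.04 for NOTCH1KO (adjusted p = 0.000107) and -2.45 for NOTCH2KO (adjusted p = 5.09e-05), so that the WT mean of 16.3 TPM lay between the lines. WISP1, a CCN-family matricellular gene and known WNT target, had 69.5, 25.7, 89.2 and 28.7 TPM in NOTCH1KO and 1.54, 1.64, 2.93 and 1.01 in NOTCH2KO (log2 difference -4.13 ± 0.27, adjusted p = 4.15e-05). Its NOTCH1KO values were higher with DMSO than with DAPT on both plates, and far above every NOTCH2KO value. MME, which encodes the membrane metalloprotease neprilysin, was at 0.258 ± 0.0612 TPM in NOTCH2KO against 17.8 ± 7.64 in NOTCH1KO (log2 difference -3.82 ± 0.31, adjusted p = 0.000106). PAGE2B, a cancer-testis gene, was listed at 0 in all NOTCH2KO libraries and at 18.8, 26, 25 and 23 TPM in NOTCH1KO, and its WT mean was 0.182 TPM. PAGE2 had 14.9, 19.97, 18.5 and 17.8 TPM in NOTCH1KO and 0, 0, 0 and 14.2 in NOTCH2KO (log2 difference -3.25 ± 0.87, adjusted p = 0.022), so that 1 NOTCH2KO library stood with NOTCH1KO. In WT it was at 0, 16.2, 15.2 and 14.5 TPM, so that 3 WT libraries stood with NOTCH1KO and 1 with the other NOTCH2KO libraries. Its call was lost when any of 5 libraries was left out, which were NOTCH1KO Fc with DMSO (adjusted p = 0.0731), NOTCH1KO Fc with DAPT (adjusted p = 0.0559), NOTCH1KO Jagged1 with DMSO (adjusted p = 0.0583), NOTCH2KO Fc with DAPT (adjusted p = 0.074) or NOTCH2KO Jagged1 with DMSO (adjusted p = 0.0739).

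The largest rises were as nearly complete in the other direction. FST, which encodes follistatin, the secreted antagonist of activin (GRCh37 chromosome 5, 52776239 to 52782964), had 0.272, 1.04, 0.259 and 0.458 TPM in NOTCH1KO and 32, 26.8, 31 and 29.3 in NOTCH2KO (log2 difference 4.38 ± 0.26, adjusted p = 2.57e-05). The WT mean was 5.10 TPM, and the differences from WT were -1.92 for NOTCH1KO (adjusted p = 0.00169) and 2.46 for NOTCH2KO (adjusted p = 0.000717). CPXM2, a carboxypeptidase-like gene, was at 0 in 3 of 4 NOTCH1KO libraries and at 22, 22.8, 22.5 and 22.2 TPM in NOTCH2KO, against a WT mean of 10.7. CSMD2 was listed at 0 in every NOTCH1KO library and at 12.2, 10.9, 11.6 and 7.69 TPM in NOTCH2KO. GDA, which encodes guanine deaminase, was at 9.67 ± 2.20 TPM in NOTCH2KO against 0.179 ± 0.0785 in NOTCH1KO (log2 difference 3.16 ± 0.16, adjusted p = 1.13e-05), and TMEM179 (3.59) and the phosphatase subunit gene PPP2R2C (3.33) were also near 0 in NOTCH1KO. AKR1C3, a prostaglandin and steroid reductase gene, was at 14 ± 2.58 TPM in NOTCH2KO against 0.843 ± 0.823 in NOTCH1KO (log2 difference 3.13 ± 0.34, adjusted p = 0.000426).

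Among these rises were members of SPANX, a family of sperm nuclear protein genes on chromosome X. SPANXB2 had 33.4, 30.8, 40.7 and 35.6 TPM in NOTCH1KO and 752, 765, 785 and 779.7 in NOTCH2KO (log2 difference 4.42 ± 0.09, adjusted p = 2.62e-08) and a WT mean of 94.4 TPM. SPANXA1 and SPANXA2 were given identical values (119 ± 6.24 against 7.13 ± 0.717 TPM, log2 difference 3.89), and reads of such near-identical copies cannot be told apart. SPANXC was listed at 0 in every WT library and in 3 of 4 NOTCH1KO libraries, with 11.2 TPM in the remaining one, and at 171, 175, 188 and 183 in NOTCH2KO, and the sharing of reads among the family leaves this gene uncertain too. All 24 of these genes kept their call with the GC trend removed.

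**Figure D3:**
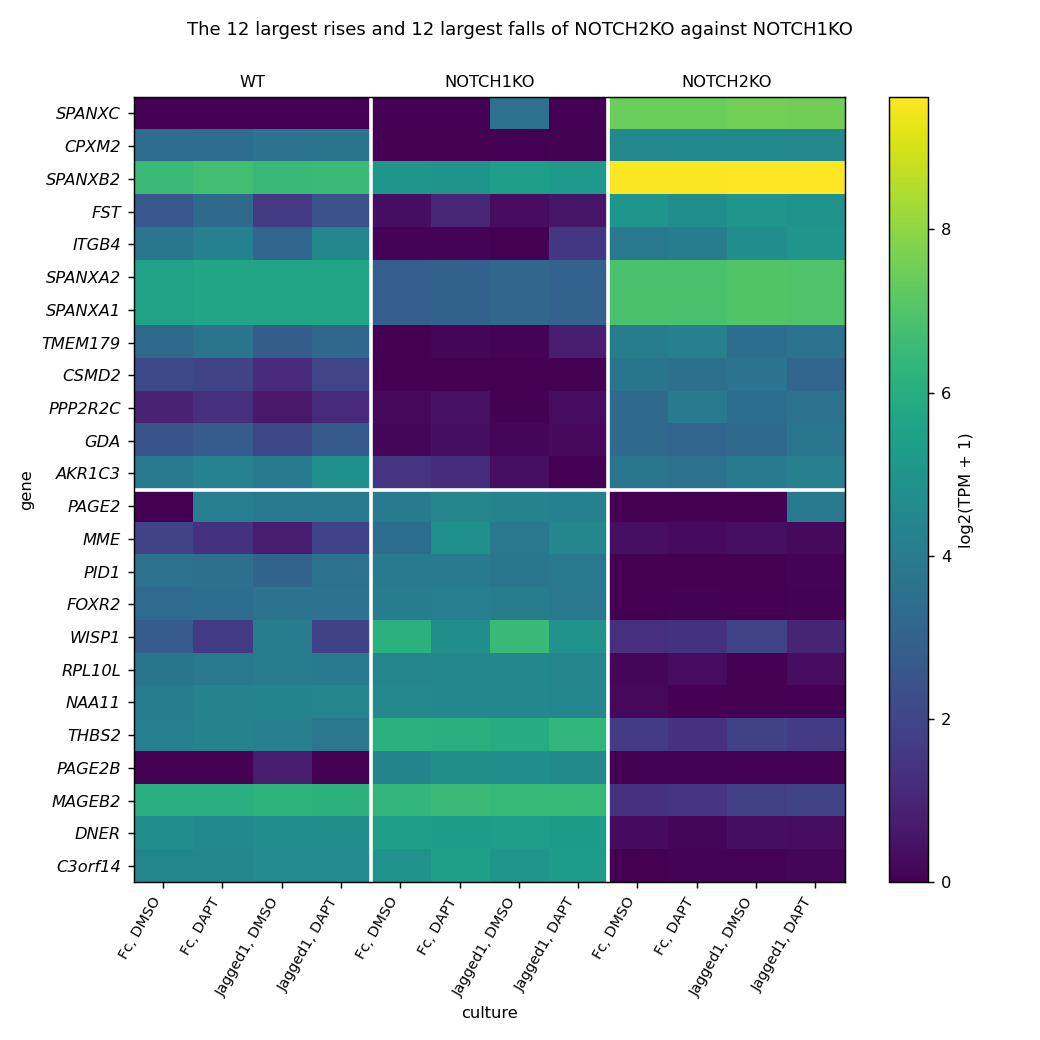
Heat map of log2(TPM + 1) for the 12 largest rises (above the white line) and 12 largest falls (below it) of NOTCH2KO against NOTCH1KO, with genes as rows and the 12 libraries as columns, grouped by genotype and labelled by culture. The NOTCH1KO and NOTCH2KO blocks hold opposite ends of the scale in most rows, except 1 NOTCH2KO library of PAGE2 and 1 NOTCH1KO library of SPANXC.

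Of 8 genes that the study had picked from these same libraries, 4 were higher and 4 lower, which is no independent evidence of direction. Besides DNER, PID1, WISP1 and GDA they were ITGB4, ITGBL1, EEF1A2 and HCLS1. ITGB4, the laminin-binding β4 integrin gene (GRCh37 chromosome 17, 73717408 to 73753899), had 0.0569, 0.0549, 0 and 1.98 TPM in NOTCH1KO and 13.8, 16, 26.3 and 31.8 in NOTCH2KO (log2 difference 4.01 ± 0.28, adjusted p = 5.94e-05), with 1 NOTCH1KO library above the other 3 and all of them below NOTCH2KO. ITGBL1, which encodes an integrin β-like secreted protein, was at 7.97 ± 0.934 TPM in NOTCH2KO against 0.204 ± 0.149 in NOTCH1KO (log2 difference 2.90 ± 0.19, adjusted p = 4.15e-05). EEF1A2, the gene of the elongation factor form found in neurons and muscle, was at 18.7 ± 1.93 TPM in NOTCH2KO against 3.35 ± 1.73 in NOTCH1KO (log2 difference 2.27 ± 0.29, adjusted p = 0.000882). The cortactin-related blood cell gene HCLS1 was at 0.639 ± 0.0387 TPM in NOTCH2KO against 6.80 ± 0.593 in NOTCH1KO (log2 difference -2.25 ± 0.12, adjusted p = 1.33e-05). Of 10 further HIF and Notch genes named from its other experiments, 5 were higher and 1 lower, beside 19.8% higher and 11.9% lower among all genes. With the GC trend removed, 4 were higher and 2 lower, beside 2903 higher and 2947 lower of the 17034 genes in that fit.

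The Notch pathway itself differed by a minority of its parts. Of 40 genes of receptors, ligands and machinery tested, 13 were higher and 4 lower in NOTCH2KO (median 0.16), beside 19.8% higher and 11.9% lower among all genes. With the GC trend removed, 11 were higher and 7 lower, beside 2903 higher and 2947 lower of the 17034 genes in that fit. Among ligands, DLL1 had 1.53, 1.40, 2.09 and 2.50 TPM in NOTCH1KO and 5.41, 5.22, 4.43 and 5.91 in NOTCH2KO (log2 difference 1.13 ± 0.16, adjusted p = 0.00117, or 0.67, adjusted p = 0.00527, with the GC trend removed), and its ranges did not overlap. JAG2 was at 2.95 ± 0.724 TPM in NOTCH2KO against 0.351 ± 0.309 in NOTCH1KO (log2 difference 1.56 ± 0.18, adjusted p = 0.000586). JAG1 had 46.2, 13.5, 110.2 and 12.9 TPM in NOTCH1KO and 82.6, 50.1, 121 and 54.8 in NOTCH2KO (log2 difference 1.19 ± 0.31, adjusted p = 0.0207), with overlapping ranges. Its lowest values were those of NOTCH1KO with DAPT, and with no term for the culture it did not pass (adjusted p = 0.271). The call was also lost without NOTCH1KO Fc with DAPT (adjusted p = 0.059), NOTCH1KO Jagged1 with DAPT (adjusted p = 0.0633), NOTCH2KO Fc with DAPT (adjusted p = 0.0677) or NOTCH2KO Jagged1 with DAPT (adjusted p = 0.0683). The fringe glycosyltransferases modify the receptors' EGF repeats, and of these MFNG was at 6.36 ± 1.58 TPM in NOTCH2KO against 2.78 ± 1.32 in NOTCH1KO (log2 difference 1.01 ± 0.14, adjusted p = 0.00129, or 0.65, adjusted p = 0.0254, with the GC trend removed). RFNG was higher by 0.90, or by 0.37, adjusted p = 0.0278, with the GC trend removed. POGLUT1, the O-glucosyltransferase, was lower, at 19.6 ± 3.59 TPM in NOTCH2KO against 28.2 ± 2.79 in NOTCH1KO (log2 difference -0.51 ± 0.10, adjusted p = 0.00613).

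Proteases and regulators gave smaller values. The sheddase gene ADAM10 was higher (118 ± 25.1 TPM in NOTCH2KO against 84.1 ± 5.23 in NOTCH1KO, log2 difference 0.46 ± 0.10, adjusted p = 0.00763). ADAM17 (0.28, adjusted p = 0.0398) and the corepressor-complex demethylase KDM5A (-0.35, adjusted p = 0.0394) passed narrowly, and their calls were lost on leaving out 10 and 9 of the 12 libraries one at a time, with adjusted p up to 0.112 and 0.121. Without the culture term neither passed (adjusted p = 0.0708 and 0.104). PSEN2, a catalytic subunit of γ-secretase, was higher by 0.43, but by 0.25, adjusted p = 0.0613, with the GC trend removed, and its call was lost without NOTCH1KO Fc with DMSO (adjusted p = 0.0562) or NOTCH2KO Fc with DAPT (adjusted p = 0.0546) or without the culture term (adjusted p = 0.0529). The endocytic adaptor NUMB, an inhibitor of Notch, was higher (64.6 ± 11.2 TPM in NOTCH2KO against 43.4 ± 3.90 in NOTCH1KO, log2 difference 0.55 ± 0.11, adjusted p = 0.0056), as was its relative NUMBL (log2 difference 1.14 ± 0.29, adjusted p = 0.0175, or 0.61, adjusted p = 0.0344, with the GC trend removed), whose call was lost without NOTCH2KO Fc with DMSO (adjusted p = 0.0591) or NOTCH2KO Jagged1 with DMSO (adjusted p = 0.0526). The corepressor CTBP1 was higher by 0.75 and by 0.32, adjusted p = 0.0182, after removal of the GC trend, and DTX1, a ubiquitin ligase gene of the pathway, was higher by 1.09 and by 0.59, adjusted p = 0.113, respectively.

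Target genes of the pathway did not share a direction. Of 16 target genes tested, 5 were higher and 1 lower in NOTCH2KO (median 0.46), and 3 and 4 with the GC trend removed. HES1, the repressor with the best-known pair of CSL sites, had 35.5, 17.9, 55 and 25 TPM in NOTCH1KO and 40.2, 27, 65.4 and 35.7 in NOTCH2KO (log2 difference 0.37 ± 0.11, adjusted p = 0.0279). Its ranges overlapped, and both lines were highest on Jagged1 with DMSO. The difference did not pass with the GC trend removed (0.30, adjusted p = 0.0604) or without the culture term (adjusted p = 0.54), and the call was lost without NOTCH1KO Fc with DAPT (adjusted p = 0.0638), NOTCH1KO Jagged1 with DMSO (adjusted p = 0.0671), NOTCH1KO Jagged1 with DAPT (adjusted p = 0.0648), NOTCH2KO Fc with DAPT (adjusted p = 0.0938) or NOTCH2KO Jagged1 with DAPT (adjusted p = 0.0954). HEY2 was lower in NOTCH2KO, with 2.86, 1.60, 7.84 and 2.24 TPM in NOTCH1KO and 1.31, 1.29, 2.24 and 1.39 in NOTCH2KO (log2 difference -0.70 ± 0.19, adjusted p = 0.0232), and its call was lost without NOTCH1KO Fc with DMSO (adjusted p = 0.0634), NOTCH1KO Jagged1 with DMSO (adjusted p = 0.0678) or NOTCH2KO Fc with DMSO (adjusted p = 0.0628) and without the culture term (adjusted p = 0.178). HEY1 was at 13.1 ± 3.67 TPM in NOTCH2KO against 11.9 ± 13.1 in NOTCH1KO (log2 difference 0.55 ± 0.34, adjusted p = 0.253) and did not pass, with a single high NOTCH1KO library. HES4 was at 1.77 ± 0.561 TPM in NOTCH2KO against 0.786 ± 1.20 in NOTCH1KO (log2 difference 0.82 ± 0.28, adjusted p = 0.0573) and did not pass. NRARP, a feedback inhibitor, was at 3.20 ± 0.588 TPM in NOTCH2KO against 4.12 ± 0.807 in NOTCH1KO (log2 difference -0.28 ± 0.16, adjusted p = 0.203) and passed with the GC trend removed (-0.92, adjusted p = 0.0104). Among the calls shared with other pathways, the transcription factor gene SOX9 was at 40.3 ± 6.75 TPM in NOTCH2KO against 19 ± 3.15 in NOTCH1KO (log2 difference 1.04 ± 0.13, adjusted p = 0.000885). CDKN1A, a cell cycle inhibitor gene, was at 91.1 ± 11.9 TPM in NOTCH2KO against 49.3 ± 14.9 in NOTCH1KO (log2 difference 0.91 ± 0.17, adjusted p = 0.00499, or 0.60, adjusted p = 0.0455, with the GC trend removed). The cyclin gene CCND1 was at 228 ± 15.4 TPM in NOTCH2KO against 152 ± 14.3 in NOTCH1KO (log2 difference 0.58 ± 0.08, adjusted p = 0.00111), but at 0.08, adjusted p = 0.747, with the GC trend removed.

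The stretches before the start sites of HES1 and HEY2 are shown because they carry the letters TGGGAA, in either orientation, that CSL is known to bind. Capitals mark those letters. Both runs are from RefSeq (GRCh38.p14, plus strand), HES1 at chr3:194136039-194136138 and HEY2 at chr6:125749394-125749493.
HES1: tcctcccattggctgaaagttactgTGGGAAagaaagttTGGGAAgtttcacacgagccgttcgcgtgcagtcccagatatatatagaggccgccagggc
HEY2: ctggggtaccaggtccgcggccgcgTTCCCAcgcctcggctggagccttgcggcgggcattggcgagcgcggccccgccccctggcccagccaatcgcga
Of 27305 promoter windows, from 250 bases before to 50 after the start, 24.3% held these letters, so that a match of this length is common. Each of the 2 genes holds 2 matches in its window, close together in the printed run of HES1 and 1 of them in that of HEY2, and their differences had opposite signs.

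HIF2α and HIF1α transcripts were both higher in NOTCH2KO. EPAS1, the gene for HIF2α (GRCh37 chromosome 2, 46520806 to 46613836), had 11.3, 14.5, 24.8 and 19.3 TPM in NOTCH1KO and 34.6, 19.2, 60.3 and 42.3 in NOTCH2KO (log2 difference 1.06 ± 0.19, adjusted p = 0.00427). The ranges overlapped, since the lowest NOTCH2KO library, of Fc with DAPT, was below the highest NOTCH1KO library, but NOTCH2KO was higher in each of the 4 pairs. Without the culture term the call was lost (adjusted p = 0.0604). HIF1A had 215, 195, 237 and 178 TPM in NOTCH1KO and 289, 281, 355 and 289.9 in NOTCH2KO (log2 difference 0.56 ± 0.10, adjusted p = 0.00357), and its ranges did not overlap. Against WT, EPAS1 was at -0.28 for NOTCH1KO (adjusted p = 0.326) and 0.78 for NOTCH2KO (adjusted p = 0.0252), and HIF1A at -0.46 for NOTCH1KO (adjusted p = 0.0117) and 0.10 for NOTCH2KO (adjusted p = 0.542). Of 18 HIF components and oxygen sensors tested, 3 were higher and 1 lower in NOTCH2KO (median 0.04), both below the shares of all genes, 19.8% and 11.9%. With the GC trend removed 2 were higher and 2 lower, and the median became -0.04. The HIF coactivator antagonist CITED2 was the member that fell (24 ± 2.76 TPM in NOTCH2KO against 33.4 ± 6.15 in NOTCH1KO, log2 difference -0.45 ± 0.09, adjusted p = 0.00779), and it was not called without the culture term (adjusted p = 0.0594).

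Genes that hypoxia is known to induce were mixed. Of 48 such genes tested, 16 were higher and 5 lower in NOTCH2KO (median 0.24), and 14 and 10 with the GC trend removed. LOX, the collagen cross-linking oxidase gene, was at 181 ± 19.9 TPM in NOTCH2KO against 69.6 ± 16.4 in NOTCH1KO (log2 difference 1.39 ± 0.09, adjusted p = 4.15e-05). VLDLR, a lipoprotein receptor gene, was at 24.4 ± 6.47 TPM in NOTCH2KO against 8.14 ± 3.86 in NOTCH1KO (log2 difference 1.53 ± 0.24, adjusted p = 0.00236). Against WT, LOX and VLDLR were at -1.45 and -1.23 for NOTCH1KO, both called, and at -0.06 and 0.29 for NOTCH2KO, neither called. The glycolytic members did not move together, since HK1 (0.61) and PFKP (0.36) were called higher, and HK2 (-0.73) and TPI1 (-0.32) lower. Of 17 angiogenic factors and receptors tested, 10 were higher and 2 lower in NOTCH2KO (median 0.66), and 8 and 2 with the GC trend removed. VEGFA had 61.5, 64.2, 89.5 and 63.9 TPM in NOTCH1KO and 111, 91.1, 132 and 119 in NOTCH2KO (log2 difference 0.70 ± 0.12, adjusted p = 0.0032), and no NOTCH1KO library reached the lowest NOTCH2KO library. The angiopoietin-like gene ANGPTL2 was at 71.9 ± 27.7 TPM in NOTCH2KO against 26.6 ± 10.2 in NOTCH1KO (log2 difference 1.40 ± 0.10, adjusted p = 5.83e-05). The chemokine gene IL8 was at 926 ± 98.7 TPM in NOTCH2KO against 415 ± 307 in NOTCH1KO (log2 difference 1.43 ± 0.27, adjusted p = 0.00489). VEGFA and ANGPTL2 were below WT in both lines, at -1.36 and -2.09 for NOTCH1KO and -0.66 and -0.69 for NOTCH2KO, all called. IL8 was at -0.98 for NOTCH1KO, called, and at 0.45 for NOTCH2KO, not called. Besides THBS2, the member that fell was the VEGF receptor gene FLT1, at 3.69 ± 0.723 TPM in NOTCH2KO against 8.92 ± 2.44 in NOTCH1KO (log2 difference -1.06 ± 0.25, adjusted p = 0.012).

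Hedgehog signalling drives a known subgroup of medulloblastoma, and 7 of 13 genes of the pathway were called higher and 0 lower in NOTCH2KO, with 5 and 2 after removal of the GC trend (median 0.39). The ligand gene SHH (GRCh37 chromosome 7, 155592680 to 155604967) had 0.492, 0.825, 0.203 and 0.898 TPM in NOTCH1KO and 8.46, 9.98, 8.20 and 11.4 in NOTCH2KO (log2 difference 2.72 ± 0.17, adjusted p = 3.72e-05), and against WT it was at -0.44 for NOTCH1KO (adjusted p = 0.096) and 2.28 for NOTCH2KO (adjusted p = 0.000151). The receptor PTCH1, itself a transcriptional target, was at 12.4 ± 2.54 TPM in NOTCH2KO against 5.59 ± 1.53 in NOTCH1KO (log2 difference 1.03 ± 0.18, adjusted p = 0.00369), and it was higher in each pair. The coreceptor gene GAS1 was at 7.97 ± 1.80 TPM in NOTCH2KO against 2.39 ± 0.524 in NOTCH1KO (log2 difference 1.39 ± 0.11, adjusted p = 7.98e-05). A further coreceptor gene, BOC, was at 7.26 ± 2.75 TPM in NOTCH2KO against 2.55 ± 0.619 in NOTCH1KO (log2 difference 1.18 ± 0.17, adjusted p = 0.00163). Unlike SHH, these genes differed from WT in NOTCH1KO, with PTCH1 at -1.24, GAS1 at -1.29 and BOC at -1.23, all called. In NOTCH2KO they were at -0.21, 0.11 and -0.05 against WT, none of them called. PTCH1 and GAS1 lie on the long arm of chromosome 9, whose genes had a raised median, as given below, as do GDA, ANGPTL2, ENG and KLF4 among the other rises. GLI1, the target most used to read pathway activity, was at 0.491 and 1.15 TPM in NOTCH1KO and NOTCH2KO, under the minimum for testing.

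Secreted antagonists of WNT were among the rises, although of 6 WNT inhibitor genes tested 3 were called higher and 1 lower. Of 35 WNT pathway genes tested, 13 were higher and 5 lower in NOTCH2KO (median 0.31), and 10 and 7 with the GC trend removed. Without the NOTCH1KO library of Fc with DAPT, 12 and 2 were called. DKK1, which blocks the LRP5 and LRP6 coreceptors, had 15.9, 26.3, 9.57 and 25.3 TPM in NOTCH1KO and 88, 116, 91 and 109.7 in NOTCH2KO (log2 difference 2.42 ± 0.29, adjusted p = 0.000591). Its relative DKK3 was at 111 ± 22.6 TPM in NOTCH2KO against 41 ± 15.5 in NOTCH1KO (log2 difference 1.46 ± 0.14, adjusted p = 0.000209). SFRP1, which binds WNT proteins, was at 104 ± 19.2 TPM in NOTCH2KO against 40.6 ± 10.8 in NOTCH1KO (log2 difference 1.35 ± 0.20, adjusted p = 0.00174). The coreceptor LRP6 was lower, at 2.50 ± 0.579 TPM in NOTCH2KO against 6.79 ± 1.01 in NOTCH1KO (log2 difference -1.16 ± 0.12, adjusted p = 0.000365). Of 43 TGF-β and BMP genes tested, 15 were higher and 5 lower in NOTCH2KO (median 0.25), and 14 and 8 with the GC trend removed, or 15 and 3 without that library. Along with FST, the activin subunit gene INHBB was higher, at 5.63 ± 0.293 TPM in NOTCH2KO against 1.03 ± 0.646 in NOTCH1KO (log2 difference 1.75 ± 0.20, adjusted p = 0.000479). ENG, the gene of the coreceptor endoglin, was at 49.4 ± 3.92 TPM in NOTCH2KO against 15.2 ± 3.07 in NOTCH1KO (log2 difference 1.66 ± 0.12, adjusted p = 7.09e-05). Ligand genes were among the falls, with GDF5 at 0.939 ± 0.395 TPM in NOTCH2KO against 4.57 ± 0.918 in NOTCH1KO (log2 difference -1.53 ± 0.14, adjusted p = 0.000168). TGFB2 was at 19.2 ± 4.15 TPM in NOTCH2KO against 32 ± 7.69 in NOTCH1KO (log2 difference -0.70 ± 0.14, adjusted p = 0.00742), and both lines were above its WT mean of 8.62 TPM. ID3, a BMP target, was higher (397 ± 32 TPM in NOTCH2KO against 241 ± 76.4 in NOTCH1KO, log2 difference 0.78 ± 0.17, adjusted p = 0.00811).

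Integrin genes, whose products bind the extracellular matrix, were called higher more often than lower in NOTCH2KO, and several matrix genes were lower. Of 18 integrin genes tested, 8 were higher and 1 lower in NOTCH2KO (median 0.48), and 9 and 1 with the GC trend removed. ITGB2, the β2 integrin of leukocytes, had 0, 0.0653, 0.0973 and 0.22 TPM in NOTCH1KO and 8.53, 8.80, 7.36 and 9.26 in NOTCH2KO (log2 difference 3.11 ± 0.13, adjusted p = 3.09e-06), which made it nearly absent from NOTCH1KO, and its WT mean was 0.305 TPM. ITGA10 was at 5.27 ± 0.88 TPM in NOTCH2KO against 1.59 ± 0.686 in NOTCH1KO (log2 difference 1.30 ± 0.20, adjusted p = 0.0021). Of 11 laminin and basement membrane genes tested, 5 were higher and 1 lower in NOTCH2KO (median 0.37), and 5 and 1 with the GC trend removed. LAMA5 was at 14.9 ± 1.06 TPM in NOTCH2KO against 5.02 ± 2.69 in NOTCH1KO (log2 difference 1.52 ± 0.26, adjusted p = 0.00302, or 0.96, adjusted p = 0.00417, with the GC trend removed). The perlecan gene HSPG2 was at 19.5 ± 6.42 TPM in NOTCH2KO against 5.50 ± 2.64 in NOTCH1KO (log2 difference 1.68 ± 0.30, adjusted p = 0.00368). Of 23 collagen genes tested, 7 were higher and 6 lower in NOTCH2KO (median 0.30), and 7 and 9 with the GC trend removed, so that the median changed sign with the GC trend (-0.07 after its removal). All 4 basement membrane collagen genes tested were lower, and COL4A1 had 178, 93.1, 188 and 109 TPM in NOTCH1KO and 58.9, 33.3, 77.3 and 38.3 in NOTCH2KO (log2 difference -1.45 ± 0.08, adjusted p = 1.56e-05), with COL4A2 at -0.48, COL4A5 at -0.73 and COL4A6 at -0.69. COL6A2, of the microfibril collagen, was higher, at 470.2 ± 75.6 TPM in NOTCH2KO against 243 ± 70.2 in NOTCH1KO (log2 difference 0.99 ± 0.18, adjusted p = 0.00401, or 0.44, adjusted p = 0.00328, with the GC trend removed).

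Of 11 CCN, thrombospondin and related matricellular genes tested, 2 were higher and 5 lower in NOTCH2KO (median -0.14), and 2 and 5 with the GC trend removed. After THBS2 and WISP1, SPARC, a collagen-binding glycoprotein gene, was lower (507 ± 60.3 TPM in NOTCH2KO against 869 ± 134 in NOTCH1KO, log2 difference -0.77 ± 0.09, adjusted p = 0.000501), as were THBS4 (-0.64) and SPP1 (-0.63), whereas CYR61 was higher (0.61). Of 25 matrix proteases and inhibitors tested, 10 were higher and 2 lower in NOTCH2KO (median 0.31), and 8 and 4 with the GC trend removed. MMP11 was at 4.10 ± 0.661 TPM in NOTCH2KO against 0.737 ± 0.451 in NOTCH1KO (log2 difference 1.59 ± 0.20, adjusted p = 0.000874). The urokinase gene PLAU was at 525 ± 26.1 TPM in NOTCH2KO against 289 ± 40.7 in NOTCH1KO (log2 difference 0.87 ± 0.10, adjusted p = 0.000496).

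Markers of cell identity were examined for both lines. The mesenchymal markers VIM and FN1 were abundant in both lines but differed in opposite directions, with VIM at 3647 and 5241 TPM and FN1 at 5400.3 and 2742 TPM in NOTCH1KO and NOTCH2KO (log2 differences 0.52 and -0.99, both called). Of 23 genes tested, 5 were higher and 7 lower in NOTCH2KO (median -0.21), and 5 and 9 with the GC trend removed. PDGFRA and PDGFRB, paralogous receptor tyrosine kinases, went in opposite directions. PDGFRA had 0.698, 0.754, 1.13 and 0.725 TPM in NOTCH1KO and 4.76, 5.25, 8.13 and 5.43 in NOTCH2KO (log2 difference 1.90 ± 0.13, adjusted p = 6.08e-05), and PDGFRB had 25.7, 11.47, 66 and 14.8 TPM in NOTCH1KO and 6.26, 5.17, 7.34 and 4.07 in NOTCH2KO (log2 difference -1.89 ± 0.44, adjusted p = 0.0122). The higher PDGFRB values of NOTCH1KO were those of DMSO, highest on Jagged1, and without the culture term the call was lost (adjusted p = 0.071). LUM, the gene of the proteoglycan lumican, was lower (2.06 ± 0.194 TPM in NOTCH2KO against 13.7 ± 11.8 in NOTCH1KO, log2 difference -1.99 ± 0.32, adjusted p = 0.00242), with the NOTCH1KO library of Jagged1 with DMSO far above the other 3. FAP, a fibroblast-surface protease gene, was lower (3.32 ± 1.17 TPM in NOTCH2KO against 12.1 ± 2.84 in NOTCH1KO, log2 difference -1.62 ± 0.09, adjusted p = 2.57e-05) and below WT in both lines.

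Of 23 neural genes tested, 12 were higher and 2 lower in NOTCH2KO (median 0.47), and 10 and 3 with the GC trend removed. STMN2, a microtubule regulator of growing axons, had 0.366, 0.388, 0.166 and 0.144 TPM in NOTCH1KO and 9.13, 10.1, 9.19 and 10.2 in NOTCH2KO (log2 difference 3.08 ± 0.14, adjusted p = 5.38e-06) and a WT mean of 0.489 TPM. MSI1, which encodes an RNA-binding protein of neural progenitors, was at 5.12 ± 0.0355 TPM in NOTCH2KO against 1.32 ± 0.622 in NOTCH1KO (log2 difference 1.44 ± 0.16, adjusted p = 0.000403). ZIC1, a transcription factor gene of cerebellar granule progenitors, was at 16 ± 3.13 TPM in NOTCH2KO against 6.55 ± 1.86 in NOTCH1KO (log2 difference 1.18 ± 0.15, adjusted p = 0.000695). NES, the gene of the intermediate filament nestin, was called lower (-1.09). Defining markers of neurons and granule progenitors were at or near 0, since DCX was listed at 0 in both lines, RBFOX3 at 0 and 0.118 TPM and ATOH1 at 0 and 0.0629 TPM. OTX2, a medulloblastoma marker of other subgroups, was at 2.25 and 2.26 TPM (log2 difference 0.02, not called). Of 13 glial markers 4 were tested, of which 3 were higher and 1 lower (2 and 1 with the GC trend removed), and SOX10, S100B and FABP7 were listed at 0 in both lines. Of 15 blood and endothelial markers 6 were tested, with 2 higher, ERG (1.75) and TEK (1.03), and 2 lower, HCLS1 and LCP1 (-1.76), and PTPRC, PECAM1 and KDR were listed at 0 in both lines. Of 16 epithelial markers 10 were tested, with 2 higher and 2 lower (median 0.19, or -0.10 with the GC trend removed), and 2 and 1 without the NOTCH1KO library of Fc with DAPT. Among them KRT17 was lower (8.33 ± 2.82 TPM in NOTCH2KO against 37.8 ± 31.6 in NOTCH1KO, log2 difference -1.65 ± 0.34, adjusted p = 0.00754), with overlapping ranges and no call without the culture term (adjusted p = 0.0731), and CDH1 was at 0.18 and 0.0993 TPM. KRT5 was the other call lower (-1.33, adjusted p = 0.0461). ESRP1 (0.96, adjusted p = 0.0204) and CLDN1 (0.60, adjusted p = 0.00505) were higher, with ranges that did not overlap. The ESRP1 call was lost without NOTCH2KO Fc with DMSO (adjusted p = 0.0708) or NOTCH2KO Jagged1 with DMSO (adjusted p = 0.0676). That of CLDN1 was lost without the culture term (adjusted p = 0.0539).

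**Figure D4:**
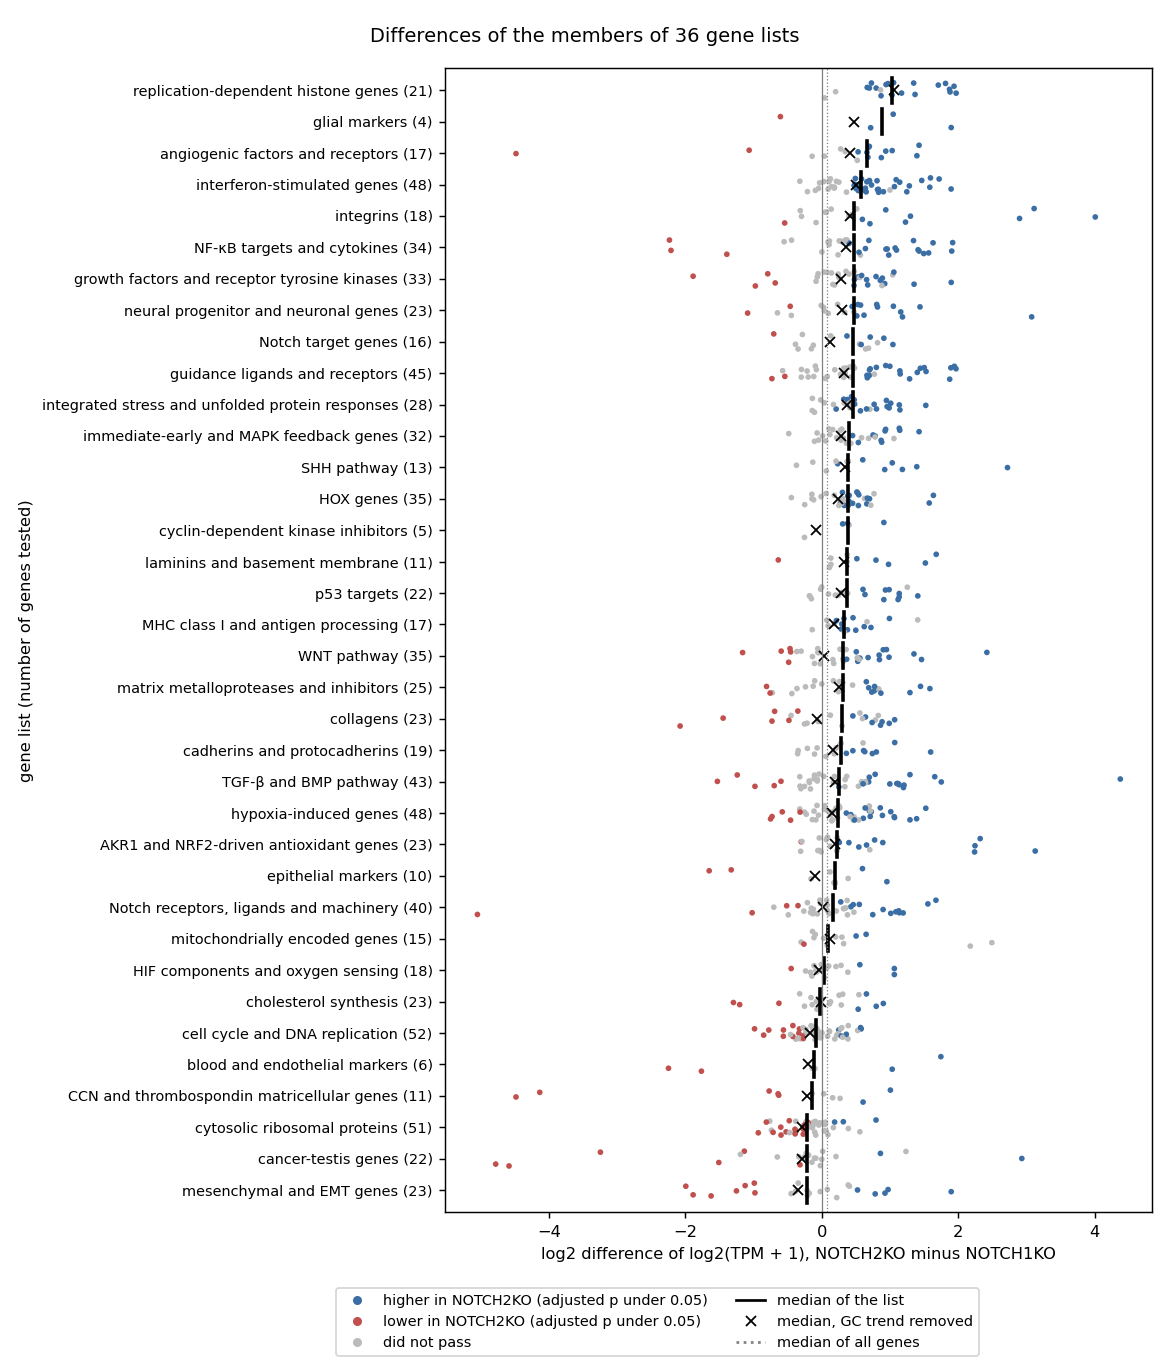
Log2 difference (horizontal axis, NOTCH2KO minus NOTCH1KO) of each tested member of 36 gene lists (vertical axis, with the number tested), in blue or red where the gene passed the test and in grey where it did not, with the median of the list as a bar and its value after removal of the GC trend as a cross. The histone list has the highest median, at 1.03, and the mesenchymal, cancer-testis and ribosomal protein lists the lowest, at -0.21, -0.21 and -0.21.

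Interferon-stimulated genes were the list with the most calls in one direction. These genes encode antiviral proteins and are switched on when the ISGF3 complex binds a DNA element known as the ISRE. Of 48 such genes tested, 30 were higher and 0 lower in NOTCH2KO (median 0.58), and 28 and 0 with the GC trend removed. OAS1, which senses double-stranded RNA, had 4.53, 2.81, 3.24 and 4.45 TPM in NOTCH1KO and 13.3, 10.53, 14 and 15.4 in NOTCH2KO (log2 difference 1.59 ± 0.15, adjusted p = 0.000208). IFI44L had 0.547, 1.06, 0.177 and 0.396 TPM in NOTCH1KO and 6.38, 3.33, 7.14 and 2.88 in NOTCH2KO (log2 difference 1.90 ± 0.27, adjusted p = 0.00132). IRF7, a transcription factor gene of the response, was at 10.54 ± 2.14 TPM in NOTCH2KO against 2.68 ± 1.59 in NOTCH1KO (log2 difference 1.72 ± 0.32, adjusted p = 0.00448, or 1.10, adjusted p = 0.00629, with the GC trend removed). The restriction factor gene TRIM22 was at 5.99 ± 1.73 TPM in NOTCH2KO against 1.29 ± 0.334 in NOTCH1KO (log2 difference 1.58 ± 0.20, adjusted p = 0.000798). The 2 lines did not overlap in any of these 4 genes. Against WT the same 48 genes gave 1 higher and 35 lower in NOTCH1KO (median -0.66) and 2 higher and 7 lower in NOTCH2KO (median -0.09), comparisons that share the WT libraries. The direction toward NOTCH2KO came with NOTCH1KO levels below those of WT.

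Promoter runs of 3 of these genes are shown because they hold the core of the ISRE, the letters GAAA, then any 2 bases, then GAAA, which capitals mark. They are 3 called genes with large differences whose promoter was in the RefSeq table and held the letters before the start. The choice did not take in every chromosome, so they need not be the 3 largest differences of such genes. Positions are on GRCh38.p14, with IFI44L at chr1:78620259-78620394 and ISG15 at chr1:1013359-1013458 on the plus strand and IFI6 at chr1:27672266-27672373 on the minus strand.
IFI44L: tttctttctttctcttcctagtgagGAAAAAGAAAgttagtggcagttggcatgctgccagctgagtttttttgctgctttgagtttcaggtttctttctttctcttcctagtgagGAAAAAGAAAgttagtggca
ISG15: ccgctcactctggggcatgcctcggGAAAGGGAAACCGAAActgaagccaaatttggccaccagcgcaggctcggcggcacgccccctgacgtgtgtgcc
IFI6: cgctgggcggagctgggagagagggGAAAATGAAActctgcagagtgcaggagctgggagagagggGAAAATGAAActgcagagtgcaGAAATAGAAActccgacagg
IFI44L and IFI6 carry repeated copies within a repeated stretch, and ISG15 carries overlapping copies. Of the called members with a promoter in the table, 15 of 20 held the letters, searched on both strands, as did 9 of 17 that were not called, against 3.65% of all 27305 windows. ISG15 was higher by 1.47 and IFI6 by 1.25.

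Of 17 genes of MHC class I and antigen processing tested, 10 were higher and 0 lower in NOTCH2KO (median 0.33), and 5 and 0 with the GC trend removed. HLA-B was at 674 ± 37.8 TPM in NOTCH2KO against 412 ± 67.6 in NOTCH1KO (log2 difference 0.72 ± 0.11, adjusted p = 0.0022, or 0.41, adjusted p = 0.00376, with the GC trend removed). The immunoproteasome subunit gene PSMB9 was at 159 ± 17.1 TPM in NOTCH2KO against 113 ± 14.7 in NOTCH1KO (log2 difference 0.50 ± 0.11, adjusted p = 0.00943). HLA-E was higher by 0.62 but by 0.08, adjusted p = 0.444, with the GC trend removed, and its call was lost without NOTCH2KO Fc with DAPT (adjusted p = 0.0537). Reads of the similar HLA genes may be shared among them. Of 34 NF-κB targets and cytokines tested, 17 were higher and 3 lower in NOTCH2KO (median 0.48), and 15 and 2 with the GC trend removed. CSF1, a macrophage growth factor gene, was at 33.5 ± 5.73 TPM in NOTCH2KO against 8.71 ± 4.54 in NOTCH1KO (log2 difference 1.92 ± 0.20, adjusted p = 0.000358). The granulocyte growth factor gene CSF3 was at 9.97 ± 3.25 TPM in NOTCH2KO against 2.42 ± 2.58 in NOTCH1KO (log2 difference 1.91 ± 0.22, adjusted p = 0.000575). TNF, a primary cytokine of the pathway, was lower, with 12.9, 9.88, 16.8 and 11.8 TPM in NOTCH1KO and 1.68, 1.73, 1.92 and 2.30 in NOTCH2KO (log2 difference -2.23 ± 0.17, adjusted p = 7.27e-05). The chemokine gene CXCL12 was lower as well, at 0.9 ± 0.224 TPM in NOTCH2KO against 8.43 ± 4.02 in NOTCH1KO (log2 difference -2.21 ± 0.31, adjusted p = 0.00126).

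Stress-response lists held calls mostly in one direction. Of 28 ATF4 and unfolded protein response genes tested, 17 were higher and 0 lower in NOTCH2KO (median 0.46), and 13 and 0 with the GC trend removed. CHAC1, a glutathione-degrading enzyme gene induced by ATF4, was at 7.08 ± 0.389 TPM in NOTCH2KO against 2.81 ± 1.41 in NOTCH1KO (log2 difference 1.15 ± 0.17, adjusted p = 0.00146, or 0.73, adjusted p = 0.0018, with the GC trend removed), below the WT mean of 17.1 TPM in both lines. Of 22 p53 targets tested, 9 were higher and 0 lower in NOTCH2KO (median 0.37), and 9 and 0 with the GC trend removed. PHLDA3, the gene of a repressor of AKT, was at 18.4 ± 0.961 TPM in NOTCH2KO against 6.43 ± 1.41 in NOTCH1KO (log2 difference 1.41 ± 0.14, adjusted p = 0.000236). The death receptor gene FAS was at 11.2 ± 1.37 TPM in NOTCH2KO against 4.72 ± 1.30 in NOTCH1KO (log2 difference 1.12 ± 0.14, adjusted p = 0.000663). Of 32 immediate-early and MAPK feedback genes tested, 11 were higher and 0 lower in NOTCH2KO (median 0.40), and 11 and 3 with the GC trend removed. The transcription factor gene KLF4 was at 24 ± 0.943 TPM in NOTCH2KO against 8.42 ± 1.70 in NOTCH1KO (log2 difference 1.43 ± 0.11, adjusted p = 9.04e-05). The feedback inhibitor gene SPRY2 was at 37.1 ± 5.44 TPM in NOTCH2KO against 16.1 ± 0.741 in NOTCH1KO (log2 difference 1.14 ± 0.11, adjusted p = 0.000244). Of 23 AKR1 and NRF2-driven genes tested, 10 were higher and 1 lower in NOTCH2KO (median 0.23), and 9 and 2 with the GC trend removed. Beside AKR1C3, the hydroxysteroid dehydrogenase gene AKR1C1 was at 6.43 ± 2.61 TPM in NOTCH2KO against 0.432 ± 0.322 in NOTCH1KO (log2 difference 2.32 ± 0.27, adjusted p = 0.000502). AKR1C2 was at 4.07 ± 1.17 TPM in NOTCH2KO against 0.0463 ± 0.0589 in NOTCH1KO (log2 difference 2.25 ± 0.18, adjusted p = 8.23e-05), and reads shared among these similar genes could have been split between them.

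In the lists of proliferation and of the ribosome, lower calls outnumbered higher ones. Of 52 cell cycle and replication genes tested, 5 were higher and 11 lower in NOTCH2KO (median -0.08), and 2 and 14 with the GC trend removed. The calls were 4 and 7 when the NOTCH1KO library of Fc with DAPT was left out, a fit in which 1826 of all 17621 genes were lower. With all libraries, 4 of 25 genes of G1 and S phase were higher and 4 lower. Of 27 genes of G2 and M phase, 1 was higher and 7 lower, so the excess of lower calls lay there. The mitotic kinase gene AURKB was at 89.4 ± 12.6 TPM in NOTCH2KO against 178 ± 23.4 in NOTCH1KO (log2 difference -0.99 ± 0.15, adjusted p = 0.00163). The helicase subunit gene MCM3 had 319, 354, 313 and 323 TPM in NOTCH1KO and 178, 195, 175 and 175 in NOTCH2KO (log2 difference -0.85 ± 0.06, adjusted p = 6.08e-05), with ranges that did not overlap. It lies on chromosome 6, in the stretch from 50 to 60 Mb, whose genes had a median of -0.26. The cyclin gene CCNA2 was at 64.5 ± 4.05 TPM in NOTCH2KO against 112 ± 12.9 in NOTCH1KO (log2 difference -0.78 ± 0.10, adjusted p = 0.00106). Of 5 cyclin-dependent kinase inhibitors 3 were called higher, CDKN1A among them, but 1 and 1 were called higher and lower with the GC trend removed, and 1 and 0 without the same library. Of 51 cytosolic ribosomal protein genes tested, 3 were higher and 17 lower in NOTCH2KO (median -0.21), and 1 and 21 with the GC trend removed. RPS12 had 1739.9, 1649, 1746 and 1724 TPM in NOTCH1KO and 999, 999, 947 and 958 in NOTCH2KO (log2 difference -0.81 ± 0.06, adjusted p = 5.9e-05) and was lower in each pair. RPL35, on the long arm of chromosome 9, was higher, at 1993 ± 314 TPM in NOTCH2KO against 1152 ± 209.8 in NOTCH1KO (log2 difference 0.80 ± 0.14, adjusted p = 0.00413). Genes of this kind have many processed pseudogenes, and the assignment of reads shared with them was not described.

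Of 21 replication-dependent histone genes tested, 18 were higher and 0 lower in NOTCH2KO (median 1.03), and 11 and 0 with the GC trend removed, a fit that 15 of them entered because the others had no GC value. Their usual mRNAs lack a poly-A tail, so that poly-A libraries hold mainly their polyadenylated forms. HIST1H2BD had 5.74, 7.63, 8.02 and 7.40 TPM in NOTCH1KO and 28.5, 28.2, 29.8 and 35 in NOTCH2KO (log2 difference 1.94 ± 0.13, adjusted p = 4.15e-05). HIST2H2BE had 2.12, 1.44, 1.66 and 1.66 TPM in NOTCH1KO and 8.21, 9.22, 10.3 and 11 in NOTCH2KO (log2 difference 1.97 ± 0.13, adjusted p = 4.15e-05). In both genes every NOTCH2KO library was above every NOTCH1KO library. Against WT the list gave 0 higher and 17 lower in NOTCH1KO (median -1.52) and 1 higher and 5 lower in NOTCH2KO (median -0.18). Copies of these genes are near identical, and single members are uncertain. Of 23 cholesterol synthesis genes tested, 4 were higher and 3 lower in NOTCH2KO (median -0.03), and 2 and 4 with the GC trend removed or 2 and 3 without the NOTCH1KO library of Fc with DAPT. The synthase gene HMGCS1 was at 47.7 ± 4.46 TPM in NOTCH2KO against 111 ± 15 in NOTCH1KO (log2 difference -1.20 ± 0.10, adjusted p = 9.67e-05). The cyclase gene LSS was at 41.1 ± 6.16 TPM in NOTCH2KO against 21.8 ± 4.98 in NOTCH1KO (log2 difference 0.90 ± 0.13, adjusted p = 0.00126). With coverage in place of TPM the median of this list was 0.09. Of 15 mitochondrially encoded genes tested, 2 were higher and 1 lower in NOTCH2KO (median 0.09), and 2 and 0 with the GC trend removed, and median centring moved this list to -0.07.

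Guidance and adhesion genes of the nervous system were among the larger lists with more rises. Of 45 guidance ligands and receptors tested, 20 were higher and 2 lower in NOTCH2KO (median 0.46), and 14 and 5 with the GC trend removed, or 17 and 4 without the NOTCH1KO library of Fc with DAPT. The netrin-related gene NTNG1 was at 12.8 ± 1.75 TPM in NOTCH2KO against 2.52 ± 0.389 in NOTCH1KO (log2 difference 1.97 ± 0.14, adjusted p = 5.48e-05). The repellent gene SLIT3 was at 18.4 ± 4.73 TPM in NOTCH2KO against 3.97 ± 0.699 in NOTCH1KO (log2 difference 1.94 ± 0.14, adjusted p = 6.16e-05). The semaphorin gene SEMA3F was at 4.80 ± 1.74 TPM in NOTCH2KO against 0.546 ± 0.239 in NOTCH1KO (log2 difference 1.88 ± 0.14, adjusted p = 7.03e-05). The semaphorin receptor gene PLXNB2 was higher too, with 31.3, 14.6, 25.3 and 33.1 TPM in NOTCH1KO and 97.5, 97.8, 80.9 and 107 in NOTCH2KO (log2 difference 1.89 ± 0.26, adjusted p = 0.00108). Of 19 cadherin and protocadherin genes tested, 8 were higher and 0 lower in NOTCH2KO (median 0.28), and 6 and 1 with the GC trend removed. The protocadherin gene PCDH1 was at 3.82 ± 0.37 TPM in NOTCH2KO against 0.618 ± 0.342 in NOTCH1KO (log2 difference 1.60 ± 0.19, adjusted p = 0.000552). Of 33 growth factor and receptor tyrosine kinase genes tested, 13 were higher and 4 lower in NOTCH2KO (median 0.47), and 9 and 5 with the GC trend removed. IGFBP6, an IGF-binding protein gene, was at 40.4 ± 3.88 TPM in NOTCH2KO against 15.7 ± 4.55 in NOTCH1KO (log2 difference 1.35 ± 0.20, adjusted p = 0.00167, or 0.84, adjusted p = 0.00038, with the GC trend removed). The HGF receptor gene MET was at 204 ± 21.7 TPM in NOTCH2KO against 103 ± 35.8 in NOTCH1KO (log2 difference 1.06 ± 0.23, adjusted p = 0.00855). Of 35 HOX genes tested, 18 were higher and 0 lower in NOTCH2KO (median 0.38), and 6 and 2 with the GC trend removed, so that most of these calls ended. HOXC10 was higher in both settings (57.2 ± 1.93 TPM in NOTCH2KO against 36 ± 6.36 in NOTCH1KO, log2 difference 0.67 ± 0.15, adjusted p = 0.0103, and 0.57, adjusted p = 0.0164, with the GC trend removed).

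Of 22 cancer-testis genes tested, 2 were higher and 6 lower in NOTCH2KO (median -0.21), and 2 and 10 with the GC trend removed. These genes are silent in most adult tissues besides testis and are often active in tumours. MAGEB2 had 80.8, 93, 85 and 85.4 TPM in NOTCH1KO and 1.60, 1.74, 2.58 and 2.92 in NOTCH2KO (log2 difference -4.78 ± 0.12, adjusted p = 7.61e-08), and MAGEC2 had 8.98, 9.52, 9.99 and 8.76 TPM in NOTCH1KO and 73.3, 76.4, 81.3 and 80 in NOTCH2KO (log2 difference 2.93 ± 0.07, adjusted p = 7.89e-08). Both families lie on chromosome X, and the 2 genes differed from WT in different lines, MAGEB2 by 0.33 for NOTCH1KO (adjusted p = 0.0703) and -4.45 for NOTCH2KO (adjusted p = 3.74e-07), and MAGEC2 by -2.63 for NOTCH1KO (adjusted p = 3.96e-07) and 0.30 for NOTCH2KO (adjusted p = 0.021).

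Differences also followed the position of genes on chromosomes. In windows of 10 Mb with at least 15 protein-coding genes of at least 5 TPM, 246 windows in all, the medians ran from -0.55 (chromosome 4, 40 to 50 Mb) to 0.85 (chromosome 22, 50 to 60 Mb). With the GC trend removed they ran from -0.55 (chromosome 5, 30 to 40 Mb) to 0.72 (chromosome 9, 100 to 110 Mb), and that chromosome 22 window was at 0.42. Chromosome 15 from 60 to 90 Mb was also below 0, at -0.38, -0.28 and -0.37 as fitted. The windows of chromosome 9 beyond 70 Mb, where NOTCH1 itself lies, had medians from 0.36 to 0.75. Their 315 genes had a median of 0.52 (0.43 with the GC trend removed), against 0.08 for all other genes, and 197 were called higher and 3 lower. Between the pairs this median ran from 0.50 to 0.64. The 231 genes of chromosome 6 beyond 70 Mb, in the stretch where THBS2, RPS12 and HEY2 lie, had a median of -0.38 (-0.38 with the GC trend removed), with 4 called higher and 116 lower and pair medians from -0.53 to -0.26. On chromosome 14 beyond 100 Mb, where JAG2 and TMEM179 lie, 30 of 46 genes were called higher and 0 lower (median 0.68, or 0.48 with the GC trend removed). Such values were not particular to these stretches. Chromosome 22 from 10 to 20 Mb had 16 of 20 genes higher and 0 lower (median 0.68, or 0.485 with the GC trend removed). Chromosome 9 from 0 to 10 Mb had 16 of 26 higher and 0 lower (median 0.50, or 0.48).

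The same stretches differed from WT in different lines. Chromosome 9 beyond 70 Mb had medians of -0.78 in NOTCH1KO and -0.19 in NOTCH2KO against WT, chromosome 14 beyond 100 Mb -0.59 and 0.12, and chromosome 6 beyond 70 Mb 0.17 and -0.23. These stretches were chosen after their values had been seen and carry no test. DNA copy number was not measured, and its part in these values was not tested.

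**Figure D5:**
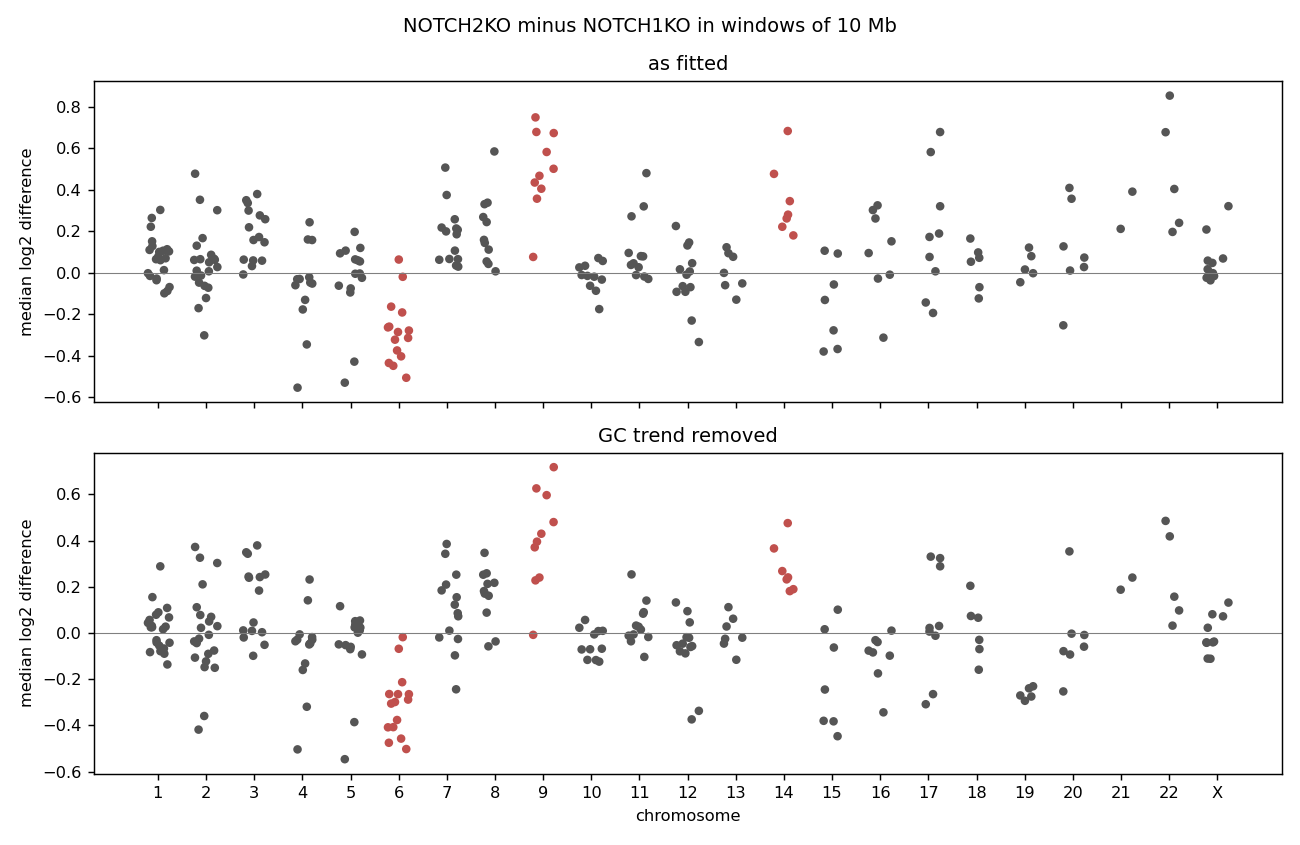
Median log2 difference (vertical axis, NOTCH2KO minus NOTCH1KO) of protein-coding genes in windows of 10 Mb, 1 point per window, by chromosome (horizontal axis, with points spread sideways at random), as fitted above and with the GC trend removed below. Chromosomes 6, 9 and 14 are in red: 14 of 15 windows of chromosome 6 lie below 0 as fitted and 15 of 15 with the GC trend removed, and all 7 of chromosome 14 lie above 0 in both. The windows of chromosome 22 also lie above 0 in both.

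Whether the difference between the lines depended on the culture was tested with interaction terms. Between Jagged1 and Fc plates it differed for 8 genes (1509 at an unadjusted p under 0.05), between DAPT and DMSO for 4 (722) and between Jagged1 with DMSO and the other 3 cultures for 15 (1259), by limma over 17621 genes. In simulated data with 200 of 17621 genes changed and independent normal noise, these tests recovered 56%, 50% and 21% of log2 changes of 2, and 11%, 4% and 0% of changes of 1, against 92% and 64% for the comparison of the lines. Most interactions of log2 1 were thus not detected in that setting. Between the real lines 5578 genes were called, so recovery in that comparison may differ from the simulated one. Most genes called were pseudogenes, non-coding RNAs or transcripts known by a clone name. The signal recognition particle gene SRP9 had 412, 464, 409 and 418 TPM in NOTCH1KO and 335, 345, 125 and 117 in NOTCH2KO (interaction with the plate -1.40 ± 0.12, adjusted p = 0.0309), with both low values in NOTCH2KO on Jagged1, and CRCP behaved alike, with 85.6, 86.5, 77.3 and 82.9 TPM in NOTCH1KO and 113, 102, 9.72 and 10.6 in NOTCH2KO (interaction -3.18 ± 0.15, adjusted p = 0.00275). BLCAP had 53.3, 49.2, 54 and 45.9 TPM in NOTCH1KO and 69.1, 73.3, 0.952 and 68.2 in NOTCH2KO, with 1 library far below the other 7, that of NOTCH2KO on Jagged1 with DMSO.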

How the data were processed

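Poly-A mRNA of 12 DAOY cultures (WT, NOTCH1KO and NOTCH2KO, 4 each) was sequenced by the authors as stranded libraries with single reads of 51 bases. The authors deposited one table per library of gene TPM (transcripts per 1000000), FPKM and coverage values on GRCh37; the sources read here did not name the aligner, the quantifier or its annotation. TPM totals 1000000 in every library, and depth was read from the ratio of coverage to FPKM as 18.3 to 22.4 M reads. Rows of 22 identifiers listed several times were summed. No pair of libraries was identical, and correlations ran from 0.924 to 0.976 over 66 pairs.

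Genes with a mean of at least 1 TPM (17621) were tested on log2(TPM + 1) with limma 3.58.1 in R 4.3.3, with terms for genotype and culture over all 12 libraries (6 residual degrees of freedom), two-sided, and Benjamini-Hochberg adjusted p under 0.05. Interactions with the culture left 4 degrees of freedom. The same replicate number meant the same plate and drug per the labels, so the culture was kept as a block; deviations of same-culture libraries correlated between -0.017 and 0.103. In simulated data with 200 of 17621 genes changed, far fewer than were called here, 64% of log2 changes of 1 and 92% of changes of 2 were recovered for the comparison of the lines.

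The GC trend over transcripts was removed per library with a smoother (span 0.3). Genes were named by rule: the receptors, EPAS1, HIF1A and the study's genes, the 12 largest changes each way with the same sign in 4 pairs, up to 4 per list and 5 per direction of each interaction, besides called Notch genes. Non-coding, clone-named, pseudogene and Y-linked entries were left out, some named genes are not reported here, and list members given beyond the rule were chosen after their values were seen. The members and lists were chosen with earlier results of these data known. Motifs were searched on both strands of RefSeq promoters. Alternatives covered the pseudocount, filter, unit, scaling, block, samples, weights, GC and length.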

Additional observations from a re-analysis of the deposited data

Results flagged for a closer look

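In 352 groups of 4 libraries of one line (named genes in NOTCH1KO or NOTCH2KO), 29 held a library whose gap to the nearest other, relative to the range of the group, was above the 95% critical value of Dixon's test. Chance gives this in about 1 in 20 groups of replicates, but these 4 libraries were different cultures, so that the 29 carry no test. Genes were also named in part for an interaction with the culture, as SPANXC, PDXP, BLCAP and FUNDC2 had. Libraries standing apart in such genes were favoured by that choice. Of the 29, the most, 10, fell on the NOTCH1KO library of Jagged1 with DMSO, the culture with ligand and no inhibitor. There the Notch target HEY1 was at 31.5 TPM (3.81 to 7.85 in the other NOTCH1KO libraries), VEGFA at 89.5 (61.5 to 64.2), FLT1 at 12.6 (7.37 to 7.92), LUM at 31.4 (6.81 to 9.16), INHBB at 2 (0.652 to 0.756), PDGFRA at 1.13 (0.698 to 0.754) and FUNDC2 at 27.5 (8.73 to 9.55). SPANXC at 11.2 and PDXP at 49.9 were at 0 in the other libraries of the line, and LAMA1 at 3.23 (7.06 to 7.73) was the low value.

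The NOTCH2KO library of the same culture held 7, with HIF1A at 355 (281 to 290), HEY2 at 2.24 (1.29 to 1.39) and COL5A3 at 1.45 (0.649 to 0.69) high, and MFNG at 4.01 (6.84 to 7.31), PSMB9 at 134 (165 to 170), RPS23 at 623 TPM and BLCAP at 0.952 (68.2 to 73.3) low. The NOTCH2KO library of Fc with DAPT held NOTCH3 at 1.33 (0.186 to 0.246), MCM3 at 195 (175 to 178) and ITGA10 at 3.96 (5.66 to 5.79). SDF2L1 at 8.46 (18.5 to 19.9) was low in the NOTCH1KO library of Fc with DAPT. In the NOTCH1KO library of Jagged1 with DAPT, ITGB4 was at 1.98 (0 to 0.0569), TMEM179 at 0.764 (0 to 0.0866) and CPXM2 at 0.03, with 0 elsewhere in the line. The NOTCH2KO library of Jagged1 with DAPT held PID1 at 0.0729 and PAGE2 at 14.2, both at 0 in the other NOTCH2KO libraries, and FDXR at 5.99 (5.08 to 5.18). That of Fc with DMSO held NAA11 at 0.149 (0 in the others) and PDXP at 0 (30.2 to 34.2).

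For 6 named genes the difference between the lines itself differed between cultures by limma's interaction test. On Jagged1 against Fc plates it differed by -3.18 for CRCP and -1.40 for SRP9, in DAPT against DMSO by 5.47 for PDXP, and on Jagged1 with DMSO against the other 3 cultures by -3.51 for SPANXC, -5.31 for BLCAP and -2.60 for FUNDC2. The last 3, as well as PDXP, each rest on 1 or 2 libraries that stand apart as listed, and what sets these apart was not tested.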

How the results depend on the processing

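Leaving out 1 of the 12 libraries at a time gave 2666 to 3497 genes higher and 1454 to 2033 lower in NOTCH2KO. Requiring a log2 difference of at least 1 left 945 and 259, and median-centred libraries gave 3600 lower. With no replicate block, 3379 genes were higher and 1982 lower, 15 of the 168 called named genes lost their call, and the correlations of same-culture deviations, from -0.017 to 0.103, do not show that the pairing held beyond the shared culture. For the interaction with the plate, no filter on low values gave 16 genes; for that with the drug it gave 10, FPKM 2 and median centring 2; for Jagged1 with DMSO it gave 452, and library weights gave 182. The causes of these changes were not tested. CDKN2D turned to -0.0923 with the GC trend and to -0.089 with GC and length trends removed. Of the 168 called named genes, 127 were called under all 25 alternatives. With 1 library per genotype and culture and TPM in place of counts, the spread within a culture could not be estimated.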

Other observations

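Cancer-testis families on chromosome X, looked at after their values were seen, held calls in both directions. Every SPANX entry tested was higher in NOTCH2KO, SPANXD by 2.93 at 27.1 against 2.69 TPM, as was MAGEB3 (log2 difference 1.14, adjusted p = 0.000285), while its relative MAGEB1 was lower (-2.19, adjusted p = 5.38e-06). Also lower were MAGEA1 (-1.14, adjusted p = 0.000518) and the near-identical XAGE1 copies, such as XAGE1B (-1.51, adjusted p = 0.000655). Of the abundant members, PAGE5 (345 TPM in NOTCH1KO and 321 in NOTCH2KO) and MAGEA6 (162 and 150.1 TPM) did not pass, so that differences between the lines affected parts of this group. GAGE entries that passed were lower by small amounts, GAGE1 for example by -0.32 (adjusted p = 0.016), and reads shared among these copies leave single entries uncertain.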
